A study of Arabidopsis thaliana with 16 samples.

Results

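The light-harvesting and photosystem subunits described here are 41 nuclear loci of Arabidopsis thaliana, out of 33602 loci in the deposited counts. They were taken by locus identifier: 6 LHCA genes of the photosystem I antenna, 14 LHCB genes of the photosystem II antenna, 12 PSA genes of the photosystem I core and 9 PSB genes of the photosystem II core. The counts of a locus's transcript models were summed in each of 16 poly(A) RNA libraries. All 41 loci passed the filter on low counts. No cut on their values was used, but earlier results of these data were known when they were chosen.

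The libraries came from 4 genotypes with 4 libraries each, namely wild type Col-0 (WT), the d14-7 mutant of the strigolactone receptor D14, the scl28 mutant of a GRAS transcription factor, and the ckx3 ckx5 mutant of a pair of cytokinin oxidases. Each mutant is labelled a knock out, the kind of lesion is not given in the sources used here, and each library pooled material of 2 to 3 plants. The tissue was the lower stem with its axillary meristems, cut from plants with a bolt shorter than 1 cm after leaves, roots and the upper stem had been taken off. WT, d14-7 and ckx3 ckx5 were harvested 23 days and scl28 25 days after sowing, so the effects of genotype and harvest day cannot be told apart for scl28. All plants were cut between 9 and 11 in the morning of a 16 h day.

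Photosystem II and photosystem I are the chlorophyll-protein complexes of the thylakoid membrane that drive electron transport from water to ferredoxin. Chlorophyll a/b-binding proteins of the LHCB and LHCA families surround them as antennae and pass absorbed light energy to the reaction centres. The reaction-centre proteins are encoded in the plastid, while the antenna proteins and many peripheral subunits are encoded in the nucleus and imported. Their nuclear genes are among the most strongly transcribed of green tissue, respond to light, and are known targets of the GLK transcription factors and the circadian clock.

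Library totals ran from 24334925 to 36735056 counts, of which the 41 loci took 3.47% to 5.69%. Their counts per library ran from 390 to 299381. In scl28, SCL28 stood at 15.5 ± 1.95 CPM (counts per 1000000 counts of the TMM-scaled library size; SD, n = 4) against 36.5 ± 8.73 in WT. In d14-7, D14 stood at 30.5 ± 2.74 CPM against 41.2 ± 2.08, but it was also at 28.1 ± 1.69 in the ckx3 ckx5-labelled libraries, so its level does not set the d14-7 libraries apart. CKX5 was at 2.83 ± 0.955 CPM in the ckx3 ckx5-labelled libraries and at 3.33 ± 1.87 in WT. CKX3 was low in both and higher in the ckx3 ckx5-labelled libraries (1.73 ± 0.22 against 0.339 ± 0.298). These levels do not bear out the label. As the kind of lesion is not given, they do not test it either. Those libraries are therefore named by their label, and each direction given for them rests on it. The tissue label was borne out in part by its markers: STM, a gene of the shoot meristem, was at 85.8 to 172 CPM in all 16 libraries, the stem cell genes WUS and CLV3 reached no more than 0.573 and 0.448 CPM, and the root hair genes LRL3 and EXPA7 no more than 0.395 and 0.105 CPM. Of the other root genes listed, AT1G05250 reached no more than 0.23 CPM. AT2G39430 and AT3G24020 were present in all 16 libraries, at 1.64 to 6.35 and 1.07 to 2.8 CPM.

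The most even feature of the 41 genes was a difference between WT libraries that nearly all of them shared. Summed over all 41, they held 5.2%, 4.3%, 3.8% and 3.6% of the normalized counts in WT replicates 1 to 4. WT replicate 1 was the highest WT library in 40 of the 41 genes, against 35.0% of all 20947 loci tested. WT replicate 4 was the lowest in 38, against 31.6% of all loci. Both held together for 38 genes (92.7%), against 22.9% of all loci.

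The WT libraries also varied more than those of any mutant. The SD of log2 CPM was largest in WT for 33 of the 41 genes (80.5%), against 47.1% of all loci. The median SD of the 41 genes was 0.27 in WT, 0.16 in d14-7, 0.12 in scl28 and 0.07 in the ckx3 ckx5-labelled libraries. Over all loci tested the same medians were 0.19, 0.12, 0.14 and 0.11. The highest WT library exceeded the lowest by 1.55-fold for the median gene and by 1.14-fold to 3.25-fold over the 41. This range exceeded the fitted change for 39 of 41 genes in each of the comparisons with WT. A range of single libraries is often wider than a difference between group means, and the share over all loci was not computed. The 39 therefore do not set these genes apart from other loci.

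The ends of the WT range reached the levels of different mutants. WT replicate 1 lay within the range of the d14-7 libraries for 36 of 41 genes and above all scl28 libraries for 39. WT replicate 4 lay within the scl28 range for 29 genes and below all d14-7 libraries for 38. All 4 ckx3 ckx5-labelled libraries lay within the WT range for 33 genes. In d14-7, replicate 4 was the highest for 38 genes and replicate 2 the lowest for 40, and in scl28 replicate 2 was the highest for 26. The shares over all loci were not computed for the counts in this paragraph. They therefore do not set these genes apart from other loci.

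**Figure D1:**
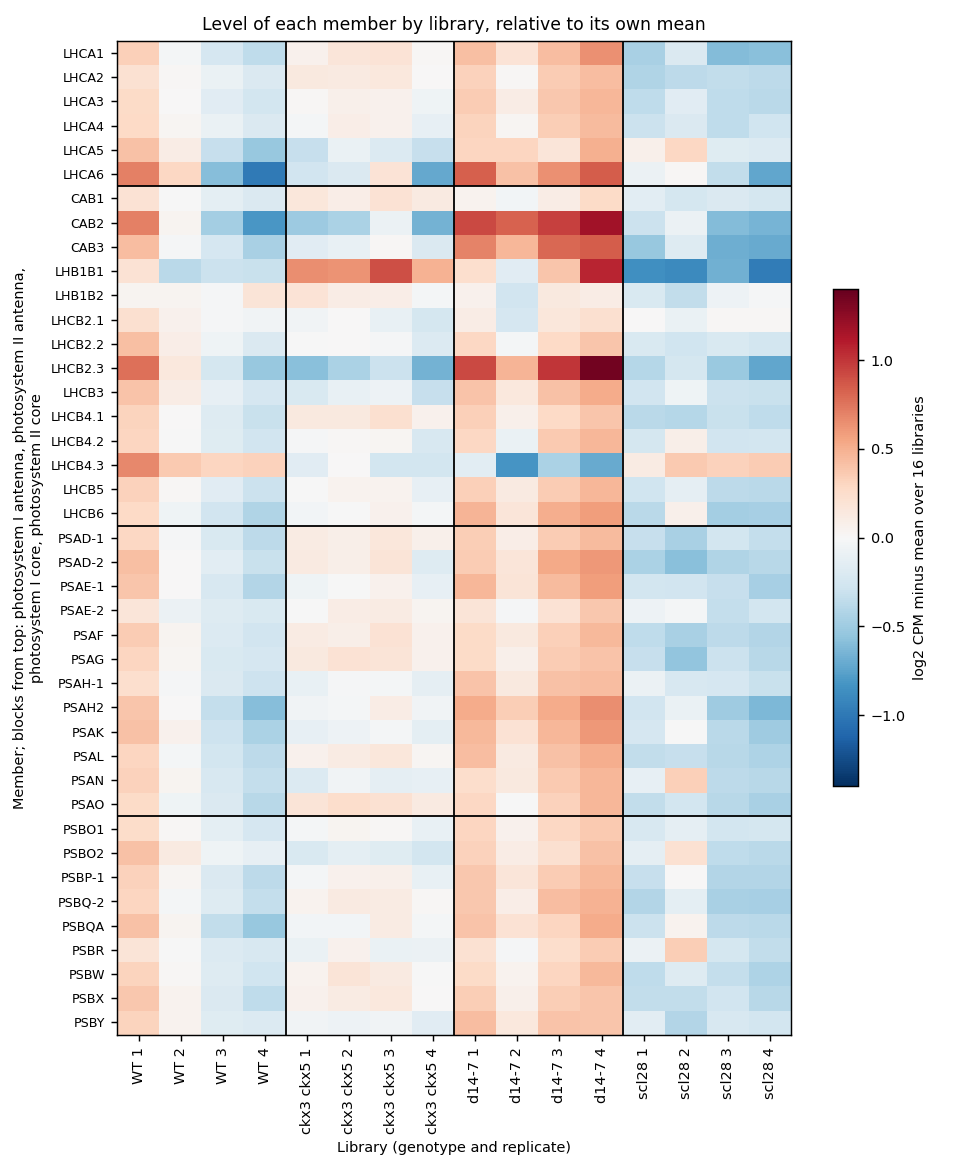
Level of the 41 genes (rows, in blocks by class) in the 16 libraries (columns), as log2 CPM minus the gene's own mean over all libraries; red is above and blue below that mean. Most rows are red in WT replicate 1 and blue in WT replicate 4, most rows are red in d14-7 and blue in scl28, and LHB1B1 and LHCB4.3 stand out as rows with another pattern.

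Some lists of marker genes also differed between the same WT libraries. Summed CPM of 11 genes of leaf carbon fixation, among them RBCS1A and RCA, was 17080, 11820, 8154 and 7039 in WT replicates 1 to 4. In the mutants this sum ran from 12890 to 16280 in d14-7, from 7401 to 9038 in scl28 and from 7444 to 9146 in the ckx3 ckx5-labelled libraries. The summed CPM of 10 meristem and boundary genes was lowest in WT replicate 1 and highest in WT replicate 4, at 255.2, 357.6, 416.5 and 449.5. STM (90.3, 134, 152 and 172 CPM) and KNAT1 (100, 153, 191 and 204 CPM) made up most of that sum, while CUC3 (3.74, 3.63, 3.12 and 2.77 CPM) and CUC1 (2.89, 1.89, 1.74 and 2.35 CPM) were highest in WT replicate 1. The sum ran from 266.2 to 330.1 in d14-7, 281.7 to 402.1 in scl28 and 251.2 to 294.7 in the ckx3 ckx5-labelled libraries. The xylem list lay at 242.7 to 273 CPM in WT and at 304.1 to 353.2 in d14-7. It lay at 277.4 to 313.9 CPM in the ckx3 ckx5-labelled libraries, also above WT, and at 186.8 to 250.5 in scl28. The root list was low, at 3.08 to 3.82 CPM in d14-7, below the 5.69 to 8.12 CPM of WT, the 6.07 to 8.88 CPM of scl28 and the 4.62 to 7.76 CPM of the ckx3 ckx5-labelled libraries. The flower list was at 5.99 to 8.91 CPM in WT, 6.95 to 9.51 in d14-7, 10.2 to 15.2 in scl28 and 7.73 to 20.7 in the ckx3 ckx5-labelled libraries, and 4 of its 5 genes rose against WT in the last and 2 in scl28. In bulk tissue, fewer cells of a type and less RNA per cell cannot be told apart, and the part of these lists in the results below was not tested.

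With the spread of WT in view, the genotypes were ordered the same way by most of the genes. The mean CPM was highest in d14-7 for 37 of 41 genes and lowest in scl28 for 34, with both true of 31. The shares over all loci were not computed, so this order does not set the 41 genes apart from other loci. Changes below are log2 fold changes ± SE from edgeR's quasi-likelihood test with 4 libraries a group, and rose and fell are used where the Benjamini-Hochberg adjusted p over all 20947 loci was under 0.05. The p-values rest on the spread among pools of plants. The median change of all loci lay between -0.01 and 0.01 in every comparison.

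Between the mutants at the ends of this order the difference was broad. In d14-7 against scl28, 36 of 41 genes were higher and 1 lower, against 20.0% and 22.5% of all loci tested. The median of the 41 was 0.63. All 4 d14-7 libraries lay above all 4 scl28 libraries for 33 genes and below for 1, against 19.4% and 21.1% of all loci. Leaving out any 1 library left 32 to 37 genes higher, beside 16.3% to 22.5% of all loci. Leaving out WT replicates 1 and 4 left 37, beside 23% of all loci. By class, 5 of 6 photosystem I antenna genes, 11 of 14 photosystem II antenna genes, 12 of 12 photosystem I core genes and 8 of 9 photosystem II core genes were higher.

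Against WT, 28 of 41 genes rose in d14-7 and 1 fell, with a median of 0.33 and against 18.1% and 20.6% of all loci. The groups overlapped for 38 of the 41. Only 2 genes had all d14-7 libraries above all WT libraries and 1 had all below, against 10.8% and 16.0% of all loci. The count of risen genes was 37 without WT replicate 1 and 32 without WT replicates 1 and 4, but 7 without WT replicate 3, 9 without WT replicate 4, 15 without d14-7 replicate 1 or 3, 9 without d14-7 replicate 4, and 5 with only these groups in the model. Over all loci the share called higher moved in the same settings, to 24.4% without WT replicate 1, 9.70% without WT replicate 3 and 9.71% without WT replicate 4. The share was 14.7%, 17.1% and 12.2% without d14-7 replicate 1, 3 and 4, and 17.8% without WT replicates 1 and 4. With only these groups in the model it was 9.91%, so the 5 of 41 genes called there lay near the share over all loci.

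In scl28 against WT, 8 of 41 genes fell and 0 rose in the edgeR test, against 10.5% and 9.30% of all loci, and the median was -0.28. The count of risen genes was also 0 at an unadjusted p under 0.05, with DESeq2 and with limma-voom. All scl28 libraries lay below all WT libraries for 7 genes, against 9.11% of all loci. The count that fell moved with single libraries. It was 22 without WT replicate 4, where 7.99% of all loci were called lower. It was 4 without WT replicate 1, WT replicate 2, or scl28 replicate 1 or 4. In those settings 13.8%, 9.8%, 7.84% and 10.7% of all loci were called lower, so the 4 did not stand out from all loci. It was 5 without replicates 1 or 2 labelled ckx3 ckx5, d14-7 replicate 1, or scl28 replicate 2 or 3. There 8.1% to 9.99% of all loci were called lower.

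In the ckx3 ckx5-labelled libraries against WT, 1 gene rose and 1 fell, against 13.6% and 16.0% of all loci, and the median was 0.03. The count that rose was 10 without WT replicate 1, where 20.1% of all loci were called higher. The count that fell was 2 without WT replicate 3 or 4, d14-7 replicate 2 or 4, or scl28 replicate 2. Against these libraries, 19 genes were higher and 1 lower in d14-7, with 17.8% and 19.0% of all loci called. The 19 became 10 without replicate 1 labelled ckx3 ckx5 or d14-7 replicate 4, 11 without replicate 4 labelled ckx3 ckx5 or d14-7 replicate 1, and 12 without d14-7 replicate 3. The share over all loci fell in the same settings, to 14.2% and 15.3%, 14.4% and 14.8%, and 15.3%. In scl28 against the ckx3 ckx5-labelled libraries 15 were lower and 1 higher, with 11.5% and 13.1% of all loci called. When any 1 library was left out, 14 to 22 were lower, beside 8.97% to 13.9% of all loci.

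**Figure D2:**
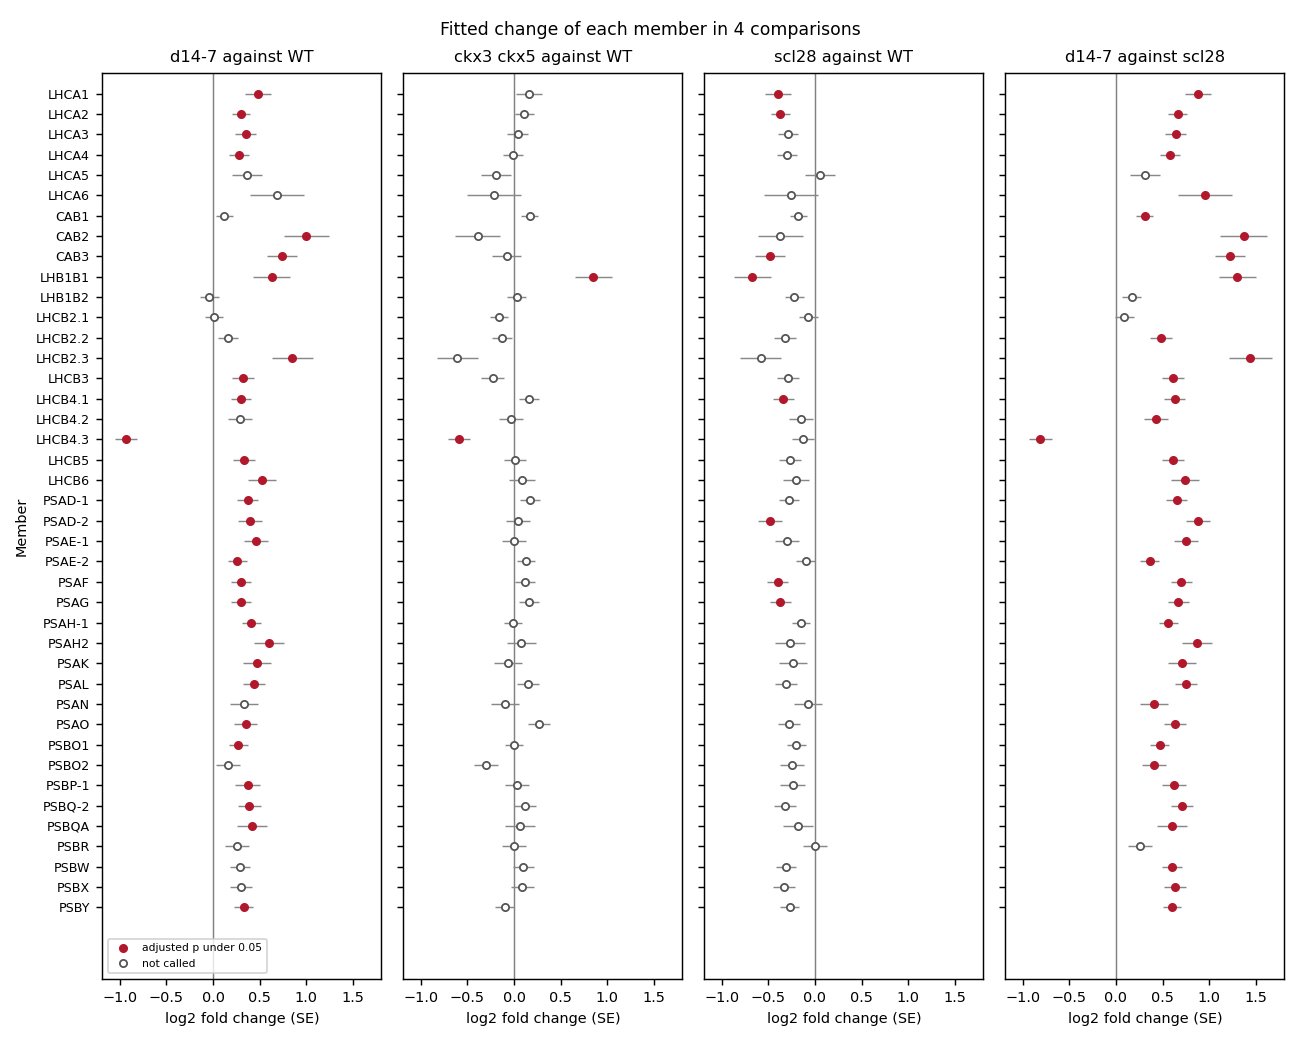
Log2 fold change of each gene (points; lines, SE) in 4 comparisons; filled points had an edgeR adjusted p under 0.05. Of the 41 genes, 36 lie right of 0 and are filled in d14-7 against scl28, 28 in d14-7 against WT and 1 in the ckx3 ckx5-labelled libraries against WT, while 8 lie left of 0 and are filled in scl28 against WT.

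Among the LHCA genes of the photosystem I antenna, LHCA1 to LHCA4 encode the belt of antenna proteins bound to the core, and LHCA5 and LHCA6 are minor proteins that link photosystem I to the NDH complex. The level per kilobase of transcript, averaged over all libraries, was 1536 CPM for LHCA1, 801 for LHCA2, 815.6 for LHCA3 and 1512 for LHCA4, but 68.5 for LHCA5 and 19.0 for LHCA6. LHCA1 (AT3G54890, chromosome 3, 20339504 to 20341176, minus strand, RefSeq TAIR10.1) stood at 2247, 1755, 1519 and 1392 CPM in WT, 2387, 2034, 2401 and 2792 in d14-7, 1307, 1558, 1170 and 1195 in scl28, and 1868, 2011, 2047 and 1804 in the ckx3 ckx5-labelled libraries. The d14-7 and scl28 libraries did not overlap, and WT reached into both. LHCA1 rose in d14-7 (0.48 ± 0.14, adjusted p = 0.014) and fell in scl28 (-0.40 ± 0.14, adjusted p = 0.0492), and the difference between them was 0.88 ± 0.14 (adjusted p = 0.000125). The rise was lost with only WT and d14-7 in the model, without WT replicate 3 and without d14-7 replicate 4. The fall was lost in 15 of 25 alternatives, among them the replicate block and leaving out WT replicate 1 or 2, any ckx3 ckx5-labelled library, d14-7 replicate 1 or 3, or scl28 replicate 1, 3 or 4.

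LHCA2 varied little in scl28, at 829.2, 862.4, 875 and 861.5 CPM, against 1289, 1124, 1038 and 964.5 in WT. All its scl28 libraries lay below all WT libraries, and its fall (-0.37 ± 0.10, adjusted p = 0.014) was the only fall in scl28 that held in each alternative run. In d14-7 it was at 1389, 1119, 1421 and 1496 CPM, a rise of 0.30 ± 0.10 (adjusted p = 0.0239). LHCA3 and LHCA4 rose by 0.35 ± 0.11 and 0.28 ± 0.11 in d14-7 (adjusted p = 0.0174 and 0.046), and were at -0.29 ± 0.11 and -0.30 ± 0.11 in scl28, where neither passed (adjusted p = 0.0612 and 0.0575).

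The scarce genes behaved more loosely. LHCA6 had the largest SD of log2 CPM within WT of all 41 genes, 0.78, with 33.4, 25.05, 13.5 and 10.3 CPM in WT replicates 1 to 4. In d14-7 it was at 36.4, 27.1, 31.8 and 36.7 CPM, in scl28 at 19.25, 20.75, 16.1 and 12.4, and in the ckx3 ckx5-labelled libraries at 17.0, 17.8, 23.3 and 12.5. It did not pass against WT in d14-7 (0.69 ± 0.29, adjusted p = 0.0681), although it was higher there than in scl28 (0.95 ± 0.29, adjusted p = 0.0155). LHCA5 was at 81.0, 81.0, 73.9 and 92.6 CPM in d14-7 and at 52.6, 61.6, 57.4 and 52.8 in the ckx3 ckx5-labelled libraries. That difference passed (0.55 ± 0.16, adjusted p = 0.0128), whereas d14-7 against scl28 did not (0.31 ± 0.16, adjusted p = 0.129).

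**Figure D3:**
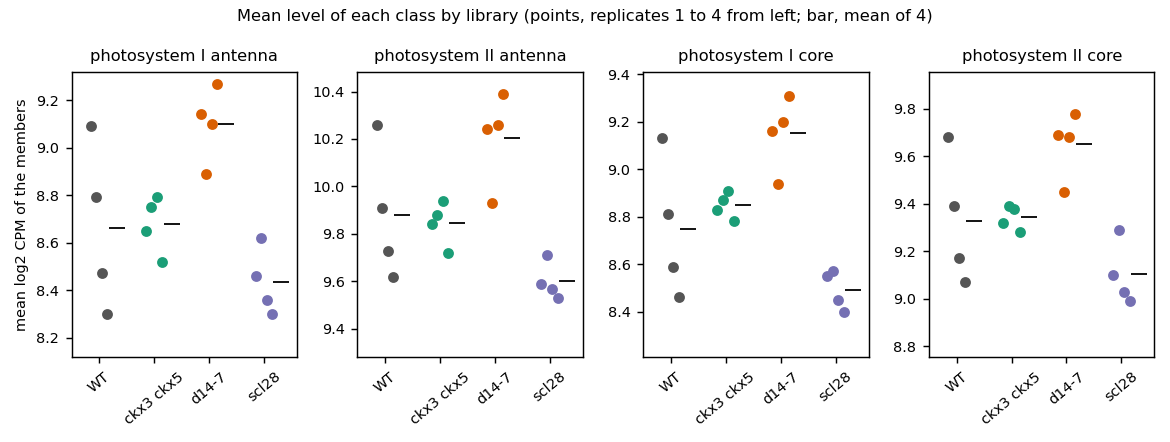
Mean log2 CPM of the genes of each class (points, replicates 1 to 4 from left in each genotype; black bar, mean of 4 libraries), on axes of equal span. In each class WT replicate 1 stands at the level of d14-7 and WT replicate 4 at that of scl28; for the photosystem I antenna the WT points are 9.09, 8.79, 8.47 and 8.30.

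The photosystem II antenna held both the most abundant and the most divergent genes. LHCB1, LHCB2 and LHCB3 proteins form the trimers of light-harvesting complex II, of which the mobile ones hold LHCB1 and LHCB2, and LHCB4, LHCB5 and LHCB6 are the monomeric antennae between trimers and core. LHCB1 is encoded by 5 genes in 2 clusters. On chromosome 1 (TAIR10.1), CAB3 (AT1G29910, 10472280 to 10473502, minus strand), CAB2 (AT1G29920, 10474656 to 10475969, minus strand) and CAB1 (AT1G29930, 10477885 to 10479114, plus strand) are neighbours. On chromosome 2, LHB1B2 (AT2G34420, 14522524 to 14523568, minus strand) and LHB1B1 (AT2G34430, 14524607 to 14525918, plus strand) stand head to head.

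The copies are close enough to share reads. Coding sequences of the first gene models were 96.1% identical between CAB1 and CAB2, 96.4% between CAB1 and CAB3, 95.6% between CAB2 and CAB3, and 91.4% between LHB1B1 and LHB1B2. The longest stretch shared letter for letter was 119 bases between CAB1 (chr1:10478473-10478591, plus strand) and CAB2 (chr1:10475372-10475490, minus strand). Between LHB1B1 (chr2:14525094-14525215, plus strand) and LHB1B2 (chr2:14523119-14523240, minus strand) it was 122 bases. A read within either stretch fits both copies, so both are printed to show where the split of counts between copies is uncertain.
CAB1 and CAB2 shared: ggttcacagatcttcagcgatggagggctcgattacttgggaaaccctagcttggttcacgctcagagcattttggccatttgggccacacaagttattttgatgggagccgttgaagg
LHB1B1 and LHB1B2 shared: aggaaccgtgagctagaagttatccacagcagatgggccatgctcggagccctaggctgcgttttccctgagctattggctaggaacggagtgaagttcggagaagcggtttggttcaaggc

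The 250 bases upstream of the annotated start are printed for the LHCB genes with the largest changes, and for CAB1 as the neighbour that changed least. They were read from the RefSeq genome TAIR10.1, 5′ to 3′ on the strand of the gene. Capitals mark CACGTG (G-box), GATAAG (I-box), CCAATC (a motif bound by GLK), AAAAATCT and AACAATCT (sites of the clock protein CCA1) and AAAATATCT (evening element), searched on both strands. No matches of different motifs overlapped in the 41 windows. The windows were CAB1 chr1:10477635-10477884 (plus), CAB2 chr1:10475970-10476219 (minus), CAB3 chr1:10473503-10473752 (minus), LHB1B1 chr2:14524357-14524606 (plus), LHCB2.3 chr3:10255656-10255905 (plus) and LHCB4.3 chr2:16745378-16745627 (plus).
CAB1: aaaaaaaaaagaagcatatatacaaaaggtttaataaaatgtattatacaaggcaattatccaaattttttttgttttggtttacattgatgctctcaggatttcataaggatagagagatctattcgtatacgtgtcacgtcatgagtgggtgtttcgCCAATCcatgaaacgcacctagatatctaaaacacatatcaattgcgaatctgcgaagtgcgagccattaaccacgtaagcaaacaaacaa
CAB2: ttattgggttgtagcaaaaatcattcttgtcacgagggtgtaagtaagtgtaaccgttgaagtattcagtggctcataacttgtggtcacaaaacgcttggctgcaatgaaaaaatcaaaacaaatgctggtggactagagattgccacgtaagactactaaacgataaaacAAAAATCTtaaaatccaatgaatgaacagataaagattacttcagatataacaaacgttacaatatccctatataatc
CAB3: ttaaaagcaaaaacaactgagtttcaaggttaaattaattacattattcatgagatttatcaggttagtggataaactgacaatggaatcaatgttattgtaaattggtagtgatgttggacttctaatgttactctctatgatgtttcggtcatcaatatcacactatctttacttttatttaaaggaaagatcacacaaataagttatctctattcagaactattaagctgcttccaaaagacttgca
LHB1B1: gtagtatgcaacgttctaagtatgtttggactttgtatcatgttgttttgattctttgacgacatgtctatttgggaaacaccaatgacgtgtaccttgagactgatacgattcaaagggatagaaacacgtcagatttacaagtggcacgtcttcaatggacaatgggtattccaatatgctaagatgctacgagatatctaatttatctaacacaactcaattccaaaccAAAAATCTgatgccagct
LHCB2.3: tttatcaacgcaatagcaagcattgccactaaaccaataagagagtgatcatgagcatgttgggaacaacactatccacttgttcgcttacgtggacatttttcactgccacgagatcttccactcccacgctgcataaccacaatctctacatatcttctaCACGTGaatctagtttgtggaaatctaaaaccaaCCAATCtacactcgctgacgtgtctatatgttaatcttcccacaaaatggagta
LHCB4.3: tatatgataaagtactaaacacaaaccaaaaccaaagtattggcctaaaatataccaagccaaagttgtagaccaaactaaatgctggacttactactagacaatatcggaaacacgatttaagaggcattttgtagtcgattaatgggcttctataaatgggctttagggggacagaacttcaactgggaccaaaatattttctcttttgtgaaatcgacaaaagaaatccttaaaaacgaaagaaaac

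CCAATC stood in 11 of the 41 windows (26.8%), against 10.2% of 27443 windows of the same length over the genome. CACGTG stood in 8 (19.5% against 6.49%), GATAAG in 9 (22% against 12.3%) and AAAAATCT in 5 (12.2% against 6.69%). AACAATCT and AAAATATCT stood in 1 window each (2.44%, against 1.83% and 2.36%). Of the windows printed, those of CAB2 and LHB1B1 hold AAAAATCT, that of CAB1 holds CCAATC, that of LHCB2.3 holds CACGTG and CCAATC, and those of CAB3 and LHCB4.3 hold none of these letters. A match describes the letters of the window only.

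CAB2 and CAB3 rose most clearly in d14-7, and the neighbouring CAB1 did not pass. CAB2 stood at 2722, 1718, 1201 and 949.7 CPM in WT and at 3188, 2966, 3241 and 3778 in d14-7. It was at 1360, 1585, 1101 and 1067 CPM in scl28 and at 1176, 1229, 1580 and 1061 in the ckx3 ckx5-labelled libraries. All d14-7 libraries lay above every other library, WT replicate 1 included. The change from WT was 1.00 ± 0.24 (adjusted p = 0.00583) and stayed called in each alternative run, between 0.81 and 1.35.

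CAB3 behaved alike, at 2598, 1912, 1643 and 1407 CPM in WT and 3128, 2669, 3372 and 3461 in d14-7. It was at 1334, 1701, 1197 and 1186 CPM in scl28 and at 1727, 1801, 1955 and 1678 in the ckx3 ckx5-labelled libraries. Its d14-7 libraries again lay above all others, with a rise over WT of 0.74 ± 0.16 (adjusted p = 0.00281) that held in each alternative run. CAB1, the most abundant of the 41 genes at 5878 CPM per kilobase, was at 8252, 7164, 6553 and 6265 CPM in WT and 7444, 6975, 7735 and 8623 in d14-7. Those groups overlapped, and the change was 0.12 ± 0.09 (adjusted p = 0.307). In scl28 CAB1 was at 6492, 6067, 6260 and 6049 CPM, below all ckx3 ckx5-labelled libraries (8045, 7662, 8274 and 7821; -0.35 ± 0.09, adjusted p = 0.0105).

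The makeup of the LHCB1 counts therefore differed between libraries. CAB2 and CAB3 together held 36.4%, 36.4%, 36.4% and 36.8% of the counts of the 5 genes in d14-7. In WT replicates 1 to 4 they held 31.1%, 25.4%, 22.3% and 18.9%. They held 22.2%, 27.3%, 19.5% and 19.3% in scl28 and 19.5%, 21.0%, 22.7% and 19.6% in the ckx3 ckx5-labelled libraries. The d14-7 share was above that of all 12 other libraries, and it stayed level although d14-7 replicate 2 was the lowest of its group in total. Summed over the 5 genes, LHCB1 was 0.32 ± 0.10 higher in d14-7 than in WT (adjusted p = 0.0261), 0.57 ± 0.11 higher than in scl28 (adjusted p = 0.000485), and at 0.26 ± 0.10 against the ckx3 ckx5-labelled libraries (adjusted p = 0.0595). The call against WT was lost without WT replicate 3 or 4, without d14-7 replicate 3 or 4, and with only those groups in the model.

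**Figure D4:**
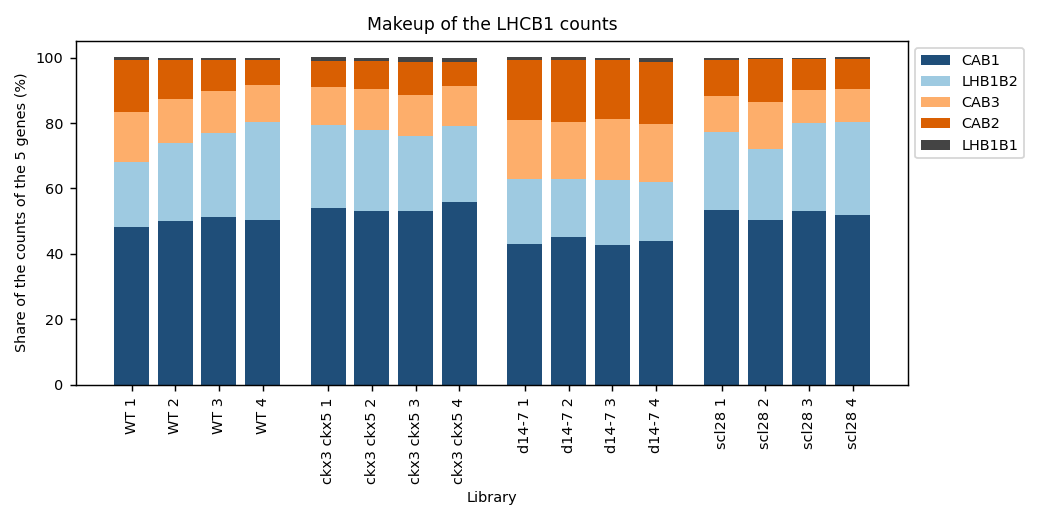
Share of each LHCB1 gene in the summed counts of the 5 genes, by library (bars add up to the whole). CAB2 and CAB3 (orange tones) take 36.4% to 36.8% in the 4 d14-7 libraries and 18.9% to 31.1% in all others.

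LHB1B1 was the only gene of the 41 to rise in the ckx3 ckx5-labelled libraries. It was at 177.9, 175, 211.2 and 158.5 CPM there, above all WT libraries (130.2, 86.9, 91.9 and 91.1). Its scl28 libraries (62.2, 61.2, 70.8 and 57.3 CPM) lay below all others, and in d14-7 it was spread, at 133.5, 101.5, 148.1 and 236.9 CPM. The changes from WT were 0.85 ± 0.20 in the ckx3 ckx5-labelled libraries (adjusted p = 0.00374), 0.63 ± 0.20 in d14-7 (adjusted p = 0.0193) and -0.67 ± 0.20 in scl28 (adjusted p = 0.0248). The first held in each alternative run, the second was lost in 5 alternatives and the third in 6. The third was lost without the filter on low counts, without WT replicate 1, without scl28 replicate 1, 2 or 4, and without WT replicates 1 and 4. Between scl28 and the ckx3 ckx5-labelled libraries the difference was -1.52 ± 0.20 (adjusted p = 2.54e-05). LHB1B1 made up 0.492% to 1.36% of the LHCB1 counts, and its abundant neighbour LHB1B2 passed in none of the 6 comparisons.

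Among the LHCB2 genes, whose products are phosphorylated in state transitions, the scarce copy moved most. It is LHCB2.3, at 131.3 CPM per kilobase against 919.4 for LHCB2.1 and 964.9 for LHCB2.2. LHCB2.3 (AT3G27690) was at 292.8, 190.5, 144.6 and 118.5 CPM in WT and at 326.8, 238.8, 343.9 and 436.3 in d14-7. It was at 129.7, 144.6, 119.3 and 103.7 CPM in scl28 and at 114.2, 126.1, 139.7 and 108.5 in the ckx3 ckx5-labelled libraries, below all d14-7 libraries. The changes were 0.85 ± 0.22 from WT (adjusted p = 0.00887), 1.44 ± 0.23 from scl28 (adjusted p = 0.000136) and 1.46 ± 0.23 from the ckx3 ckx5-labelled libraries (adjusted p = 0.000118). The call against WT was lost with only those groups in the model (adjusted p = 0.0519). LHCB2.1 and LHCB2.2, whose coding sequences were 96.6% identical, were at 0.01 ± 0.10 and 0.16 ± 0.11 in d14-7 against WT, and the 3 copies summed were at 0.15 ± 0.11 (adjusted p = 0.292).

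LHCB4.3 was the only gene of the 41 to fall in d14-7, and it also fell in the ckx3 ckx5-labelled libraries. LHCB4 encodes a monomeric antenna, and LHCB4.3 is its divergent and scarce copy, at 42.3 CPM per kilobase against 960.6 for LHCB4.1 and 543 for LHCB4.2. It stood at 85.7, 69.1, 66.1 and 67.0 CPM in WT, 48.4, 30.3, 39.4 and 32.9 in d14-7, 58.3, 69.3, 67.0 and 68.7 in scl28, and 48.0, 53.8, 45.0 and 45.1 in the ckx3 ckx5-labelled libraries. WT replicate 1 was the highest WT library here too, yet every d14-7 library and every library labelled ckx3 ckx5 lay below all WT and scl28 libraries. The falls were -0.93 ± 0.12 (adjusted p = 7.71e-05) and -0.59 ± 0.12 (adjusted p = 0.00196), and both held in each alternative run. LHCB4.1 rose in d14-7 (0.30 ± 0.11, adjusted p = 0.0424) and fell in scl28 (-0.34 ± 0.11, adjusted p = 0.0397), and LHCB4.2 passed in neither (0.29 ± 0.13 and -0.15 ± 0.13).

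Of the other antenna genes, LHCB3, LHCB5 and LHCB6 rose in d14-7 by 0.32 ± 0.12, 0.33 ± 0.12 and 0.53 ± 0.15 (adjusted p = 0.0481, 0.0333 and 0.0104). LHCB6, which joins trimers to the core in higher plants, was at 1904, 1543, 1946 and 2060 CPM in d14-7 and 1666, 1320, 1141 and 1026 in WT. Its call held in each alternative run, although WT replicate 1 lay within the d14-7 range. None of the 3 passed in scl28 or in the ckx3 ckx5-labelled libraries against WT.

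**Figure D5:**
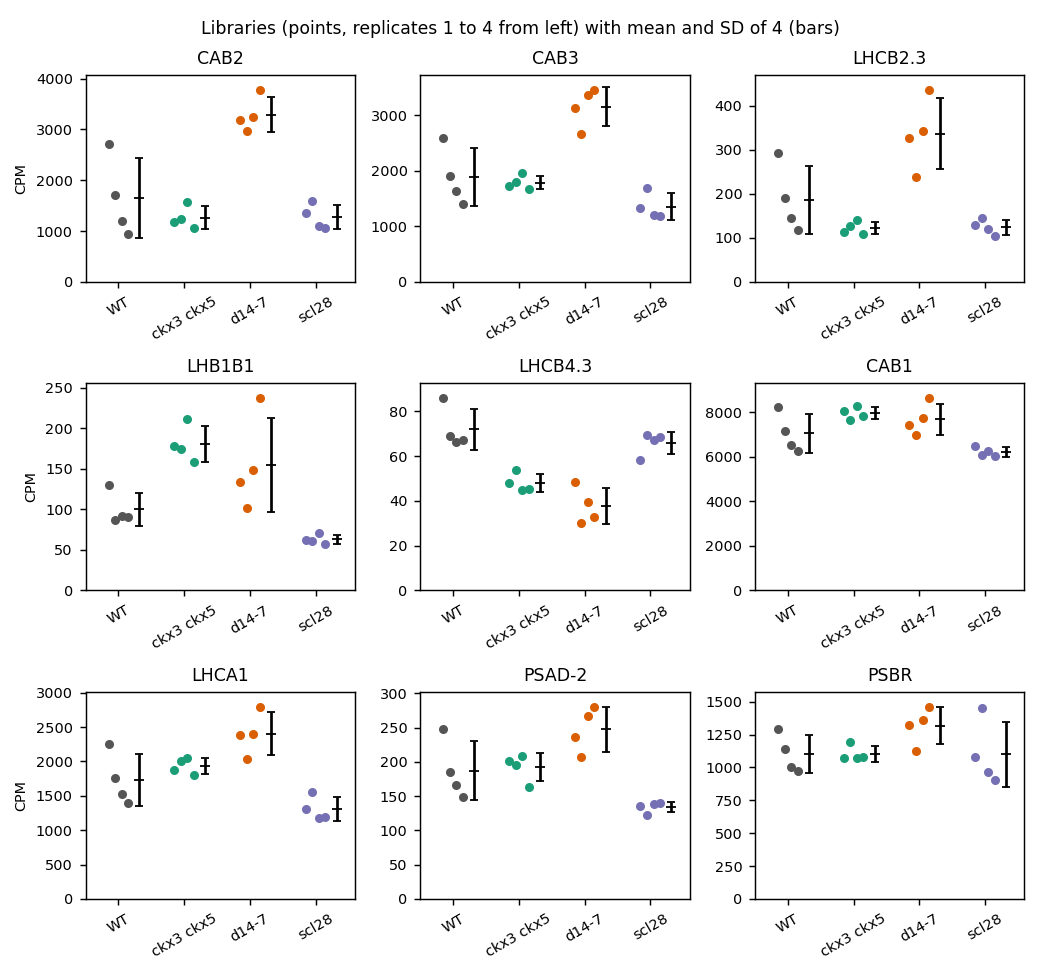
CPM of 9 genes in each library (points, replicates 1 to 4 from left in each genotype; bars, mean and SD of 4 libraries), each axis starting at 0. CAB2 and CAB3 have all d14-7 points above all others, LHB1B1 has its highest mean in the ckx3 ckx5-labelled libraries and its highest single point in d14-7 replicate 4, LHCB4.3 is lower in d14-7 and in the ckx3 ckx5-labelled libraries, and PSBR overlaps between all genotypes.

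All 12 genes of the photosystem I core were higher in d14-7 than in scl28, 11 of 12 were higher in d14-7 than in WT, and the changes from WT ran from 0.26 to 0.60. PSAD and PSAE form the stromal ridge where ferredoxin docks, PSAF binds plastocyanin, PSAG and PSAK hold the antenna belt, and PSAH, PSAL and PSAO lie where mobile trimers dock. PSAH2 had the largest change, at 439, 336.2, 264.8 and 222 CPM in WT and 477.9, 423.5, 479.3 and 527 in d14-7 (0.60 ± 0.16, adjusted p = 0.0106). It was at 278.3, 314.7, 236.5 and 217 CPM in scl28 and 323.5, 328.2, 358.8 and 324.1 in the ckx3 ckx5-labelled libraries. All d14-7 libraries lay above those of both other mutants, while WT replicate 1 lay within the d14-7 range.

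Its copy PSAH-1 rose by 0.41 ± 0.10 (adjusted p = 0.00616), and PSAH2 and PSAH-1 were the only core genes whose rise over WT held in each alternative run. PSAK was at 698.3, 545.8, 428.6 and 387.2 CPM in WT and 718, 604.8, 726.1 and 802.2 in d14-7 (0.47 ± 0.15, adjusted p = 0.0239). PSAL was at 1179, 943, 803 and 744.3 CPM in WT and 1297, 1043, 1274 and 1364 in d14-7 (0.44 ± 0.12, adjusted p = 0.00949). For PSAH2, PSAK and PSAL alike, the overlap between the groups came from WT replicate 1, which stood above d14-7 replicate 2 and below the other 3 d14-7 libraries.

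In scl28 the photosystem I core held 3 of the 8 falls. PSAD-2 was at 135.2, 122.9, 138.2 and 140.5 CPM in scl28 against 247.3, 185.8, 166.3 and 148.4 in WT (-0.48 ± 0.13, adjusted p = 0.0189). PSAF was at 702.2, 658.2, 698.1 and 677.4 CPM against 1149, 919.8, 786.4 and 743.6 (-0.40 ± 0.11, adjusted p = 0.0195). PSAG fell by 0.37 (SE 0.11, adjusted p = 0.0228). For all 3 the scl28 libraries lay below all WT libraries, and the calls of PSAD-2 and PSAF were lost with only those groups in the model and without scl28 replicate 2. That of PSAG was also lost without WT replicate 2. PSAN, a lumenal subunit, passed against WT in neither d14-7 (0.33 ± 0.15, adjusted p = 0.0935) nor scl28 (-0.08 ± 0.15, adjusted p = 0.761).

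In the photosystem II core, 5 of 9 genes rose in d14-7 and 0 of 9 fell in scl28 in the edgeR test, where 4 passed at an unadjusted p under 0.05, 4 with DESeq2 and 0 with limma-voom. PSBO, PSBP and PSBQ are the extrinsic proteins that shield the water-splitting manganese cluster, and PSBR, PSBW, PSBX and PSBY are small membrane-bound subunits. PSBQA was at 674.9, 520.7, 397.9 and 351.4 CPM in WT and 668.4, 581.9, 623.9 and 724.2 in d14-7 (0.42 ± 0.16, adjusted p = 0.0461), a call lost in 16 of the alternatives. PSBQ-2 was at 597, 476, 428.2 and 386 CPM in WT and 627.7, 518.2, 653.2 and 681.9 in d14-7 (0.39 ± 0.12, adjusted p = 0.0178). PSBP-1, PSBY and PSBO1 rose by 0.37 ± 0.13, 0.33 ± 0.10 and 0.27 ± 0.10 (adjusted p = 0.0333, 0.0186 and 0.0363).

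The remaining genes of this class did not pass against WT. PSBX was at 383.7, 384.3, 404.5 and 372.9 CPM in scl28 and 616.7, 511.4, 619.2 and 637.7 in d14-7, a difference of 0.63 ± 0.12 (adjusted p = 0.000648), with WT between them at 633.3, 503.5, 423.4 and 381.7. PSBO2 differed between d14-7 (498.4, 429.2, 466.9 and 529.7 CPM) and the ckx3 ckx5-labelled libraries (345.6, 363.5, 354.6 and 333.6), by 0.46 ± 0.13 (adjusted p = 0.00971). PSBR passed in none of the 6 comparisons, with changes from WT of 0.26 ± 0.13 in d14-7 and 0.00 ± 0.13 in scl28 and in the ckx3 ckx5-labelled libraries. Its highest scl28 library, replicate 2 at 1451 CPM, stood above every WT library (1292, 1141, 1005 and 976).

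Sums over the copies of a family do not change where a shared read was given to one copy or the other, though they would where shared reads were dropped or counted more than once. Of 8 families with several copies, all 8 were higher in d14-7 than in scl28, 5 were higher in d14-7 than in WT (LHCB1, PSAD, PSAE, PSAH and PSBQ), and 0 changed in scl28 or in the ckx3 ckx5-labelled libraries against WT in the edgeR test, where 3 were lower in scl28 at an unadjusted p under 0.05 and 0 differed in the ckx3 ckx5-labelled libraries. The count of 5 was 8 without WT replicate 1, 3 without d14-7 replicate 3, and 1 without WT replicate 3, WT replicate 4 or d14-7 replicate 4. PSAH had the largest summed change from WT (0.51 ± 0.13, adjusted p = 0.00741).

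Other genes of photosynthesis moved with the antenna and core genes only in part. Of 9 other nuclear photosystem proteins, 3 rose in d14-7 (PSI-P 0.45 ± 0.15, CURT1A 0.40 ± 0.13 and PSBTN 0.36 ± 0.12) and 1 fell, PSBP-2 (-0.94 ± 0.16, adjusted p = 0.00049), another gene for a PSBP protein, and the median was 0.40. Of 13 genes of electron transport and ATP synthase, 6 rose in d14-7 and 1 fell, with a median of 0.30. FNR2, a ferredoxin-NADP reductase, rose in d14-7 (0.68 ± 0.20) and in the ckx3 ckx5-labelled libraries (0.72 ± 0.20), where FD1, a ferredoxin, fell (-0.60 ± 0.19).

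Of 7 genes of antenna insertion and state transition, 3 rose in d14-7, with a median change of 0.20: CPFTSY (0.56 ± 0.16), CPSRP54 (0.50 ± 0.18) and ALB3 (0.42 ± 0.12), which insert LHC proteins into the thylakoid. In the ckx3 ckx5-labelled libraries the kinase STN7 fell (-0.41 ± 0.07) and the opposing phosphatase TAP38 rose (0.60 ± 0.08). The 6 plastid-encoded photosystem genes gave few counts in this poly(A) RNA, 7.34 to 17.7 CPM summed, and 2 rose in d14-7, where the median change was 0.58. Leaf carbon fixation genes were higher in d14-7 than in scl28 in 11 of 11 cases, but against WT 1 of 11 rose in d14-7 (SBPASE, 0.47 ± 0.17), 1 of 11 fell in scl28 (CA1, -2.09 ± 0.68) and 5 of 11 fell in the ckx3 ckx5-labelled libraries. The median changes from WT were 0.42, -0.36 and -0.59. The largest of those 5 falls was that of RCA, Rubisco activase (-0.83 ± 0.18, adjusted p = 0.00211), at 1020, 1200, 1100 and 907 CPM against 2720, 2020, 1460 and 1340 in WT.

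The listed transcription factors of photosynthesis genes, SIG5 among them, were mixed. Whether each of them acts on the antenna and core genes was not tested. Of 7 on the list, 4 fell and 1 rose in the ckx3 ckx5-labelled libraries, 4 rose in scl28 and 1 fell in d14-7, with medians of -0.59, 0.42 and 0.06. GLK1, an activator of LHC genes, was at 128, 104, 82.1 and 83.0 CPM in WT, 133, 123, 123 and 116 in d14-7, 107, 121, 97.5 and 87.1 in scl28 and 68.6, 69.4, 72.7 and 59.2 in the ckx3 ckx5-labelled libraries, where it fell (-0.56 ± 0.13, adjusted p = 0.00365). The GATA factors GNC and CGA1 were, like GLK1, higher in WT replicate 1 than in WT replicate 4, with GNC at 27.2, 16.1, 9.04 and 6.83 CPM and CGA1 at 7.38, 5.24, 2.24 and 1.79 CPM in WT. In d14-7 GNC was at 21.3, 20.4, 18.3 and 17.8 CPM and CGA1 at 8.05, 9.78, 5.17 and 7.32, and neither they nor GLK1 passed against WT there (GNC 0.40 ± 0.30, CGA1 0.88 ± 0.38 and GLK1 0.32 ± 0.13; adjusted p = 0.307, 0.0785 and 0.0587). GLK2, the partner of GLK1, rose in the ckx3 ckx5-labelled libraries (0.45 ± 0.11) and in scl28 (0.41 ± 0.11). HY5, which acts in light signalling, fell in the ckx3 ckx5-labelled libraries (-0.87 ± 0.10) and rose in scl28 (1.19 ± 0.10), as did HYH (-1.83 ± 0.16 and 0.92 ± 0.15) and SIG5 (-1.01 ± 0.14 and 0.67 ± 0.13).

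Clock genes differed between genotypes. All plants were cut between 9 and 11 in the morning, but the time of each library within those hours is not given. Cutting time within them and genotype therefore cannot be told apart. LHY, a clock factor of the morning, was at 260, 259, 256 and 257 CPM in WT, 183, 189, 189 and 184 in d14-7, 548, 521, 518 and 518 in scl28 and 19.1, 22.2, 19.3 and 24.3 in the ckx3 ckx5-labelled libraries. Of 9 clock genes, 6 rose and 3 fell in the ckx3 ckx5-labelled libraries, 5 rose and 1 fell in scl28, and 1 rose and 4 fell in d14-7, with medians of 0.50, 0.53 and -0.26. Within WT, where the highest library of CAB2 exceeded the lowest by 2.87-fold, LHY stayed at 256 to 260 CPM, but PRR9, GI and PRR7 were lowest in WT replicate 1 and highest in WT replicate 4. PRR9 was at 27.1, 30.9, 33.7 and 35.1 CPM, GI at 23.5, 25.8, 28.6 and 31.6, and PRR7 at 76.1, 81.6, 83.9 and 90.2. The part of the clock genes in the differences between libraries and genotypes was not tested.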

How the data were processed

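The authors deposited estimated counts, in whole numbers, for 41671 transcript models, and a normalized signal that was used only to check scaling: 99.23% of the count-to-signal ratios lay within 1% of their column's median. TAIR10 and DESeq2 are named without versions by the submitters' processing notes. The aligner, counting tool and strand setting were not given in the sources used here. As the NEBNext Ultra kit does not mark strand, antisense or overlapping transcripts can add to a gene's counts. Counts of models were summed to 33602 loci. The quasi-likelihood test of edgeR 4.0.16 in R 4.3.3 (TMM factors, filterByExpr, robust estimation) was fitted to 20947 loci in all 16 libraries, with 4 genotype means and Benjamini-Hochberg adjustment within each of 6 comparisons. The groups share 1 estimate of spread. CPM are scaled to TMM library sizes, and log2 CPM used a prior count of 2. No libraries of a group agreed within sampling noise (chi-square per locus 4.68 or more).

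Alternatives were DESeq2 1.42.0, limma-voom 3.58.1 with and without quality weights, other size factors, no filter, fewer groups, a replicate block, and leaving out each library; leaving out WT replicates 1 and 4 together was added after seeing the data. The members, lists and rules were chosen with earlier results of these data known. Members given with library values were drawn, per class and comparison, from those with the largest called changes, the highest mean and the largest WT SD. GLK1, LHY, RCA and PSBR, and LHB1B2 without library values, were added after their values were seen. LHCB6, GNC, CGA1, STM, KNAT1, CUC1, CUC3, PRR9, GI and PRR7 were also given by library outside this rule. Gene models and upstream sequences came from RefSeq TAIR10.1, which holds all 41 members. The edgeR script was tested on simulated data.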

Additional observations from a re-analysis of the deposited data

Results flagged for a closer look

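In 15 of 164 groups of 4 libraries (41 genes in 4 genotypes), the highest or lowest library stood apart from the other 3 by more of the group's range than Dixon's 95% critical value, which chance exceeds in about 1 of 20 groups. In WT, replicate 1 stood apart for LHB1B1 (130 CPM, the others 86.9 to 91.9) and for LHCB4.3 (85.7 CPM, the others 66.1 to 69.1). In the ckx3 ckx5-labelled libraries, replicate 4 was low for LHCA2 (1114 CPM, the others 1213 to 1232) and LHCB2.2 (953 CPM, the others 1078 to 1094), replicate 3 was high for PSAH2 (359 CPM, the others 324 to 328) and PSBQA (547 CPM, the others 493 to 496), and replicate 2 was high for PSBR (1194 CPM, the others 1069 to 1077). In d14-7, replicate 2 was low for PSAH-1 (303 CPM, the others 366 to 374) and PSBX (511 CPM, the others 617 to 638).

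The other 6 fell on scl28 replicate 2. It was high for LHCA3 (963 CPM, the others 832 to 844), LHCB4.2 (727 CPM, the others 569 to 581), LHCB6 (1436 CPM, the others 986 to 1057), PSBQ-2 (442 CPM, the others 351 to 365) and PSBQA (524 CPM, the others 391 to 410), and low for LHCB2.1 (1205 CPM, the others 1288 to 1301).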

How the results depend on the processing

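No called change reversed direction in any alternative. The called changes that passed in each of them were 6 of 29 for d14-7 against WT, 2 of 2 for the ckx3 ckx5-labelled libraries against WT, 1 of 8 for scl28 against WT, 10 of 20 for d14-7 against the ckx3 ckx5-labelled libraries, 32 of 37 for d14-7 against scl28 and 15 of 16 for scl28 against the ckx3 ckx5-labelled libraries. WT had the largest SD in 33 genes with each set of normalization factors.

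With only the compared groups in the model, the genes higher in d14-7 than in WT were 5 in place of 28, those lower in scl28 than in WT 2 in place of 8, those higher and lower in d14-7 than in the ckx3 ckx5-labelled libraries 29 and 0 in place of 19 and 1, and those lower in scl28 than in the latter 25 in place of 15; changed families were 1, 7 and 6 for d14-7 against WT, d14-7 against the ckx3 ckx5-labelled libraries, and scl28 against the latter, in place of 5, 4 and 3. In these fits of only the compared groups, 9.91% of all loci were called higher in d14-7 than in WT, and 6.51% lower in scl28 than in WT. Against the ckx3 ckx5-labelled libraries, 23.5% were called higher and 22.3% lower in d14-7, and 14.7% lower in scl28. Without the filter, 4 genes fell in scl28 against WT and 12 were higher in d14-7 than in the ckx3 ckx5-labelled libraries. In that setting 6.17% and 9.44% of all loci were called. DESeq2 gave 17 falls in scl28, where it called 7.95% of all loci lower. With it or its size factors 2 genes fell in the ckx3 ckx5-labelled libraries, beside 10.8% and 16.1% of all loci. With quality weights, in which WT replicate 1 had the lowest weight (0.24), 9 genes rose in those libraries, 30 were higher in d14-7 than in them, and 26 lower in scl28, where 21.8%, 24.2% and 16.5% of all loci were called. Without WT replicates 1 and 4, 2 genes rose in the ckx3 ckx5-labelled libraries and 4 fell in scl28 against WT, 23 were lower in scl28 than in the ckx3 ckx5-labelled libraries, and families changed in 7 (d14-7) and 6 (scl28) cases against the latter. The shares of all loci called for these 3 gene counts were 12.4%, 7.98% and 14.3%. The 2 rises lay below the share over all loci, and the 4 falls lay near it. The cause was not tested.

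Leaving out each library gave 7 to 37 genes higher in d14-7 than in WT, 1 to 10 higher and 1 to 2 lower in the ckx3 ckx5-labelled libraries than in WT, 4 to 22 lower in scl28 than in WT, 10 to 26 higher and 0 to 1 lower in d14-7 than in the ckx3 ckx5-labelled libraries, 32 to 37 higher in d14-7 than in scl28, and 14 to 22 lower in scl28 than in the ckx3 ckx5-labelled libraries. In the same order, the shares over all loci ran from 9.7% to 24.4%, 9.59% to 20.1%, 12.4% to 19.5% and 7.67% to 13.8%. The remaining shares ran from 14.2% to 20.4%, 15.8% to 20.6%, 16.3% to 22.5% and 8.97% to 13.9%. Changed families ran from 1 to 8 (d14-7 against WT), 0 to 1 (the ckx3 ckx5-labelled libraries against WT), 0 to 2 (scl28 against WT), 1 to 7 (d14-7 against the ckx3 ckx5-labelled libraries), 7 to 8 (d14-7 against scl28) and 1 to 5 (scl28 against the ckx3 ckx5-labelled libraries).

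Libraries with the same title number correlated in their deviations at -0.28 to 0.34, above 0.1 in 4 of 24 pairs. Differently numbered libraries were not compared, so these values do not settle whether the title numbers pair libraries. The numbers in the submitters' library names differ from the title numbers for some WT, scl28 and ckx3 ckx5-labelled libraries, and pairing by those was not tested. With a replicate block the counts were 27 genes higher in d14-7 than in WT and 5 lower in scl28 than in WT, and 1 changed family for scl28 against the ckx3 ckx5-labelled libraries. The block left 17.9% of all loci higher in d14-7 and 10% lower in scl28 than in WT. Every gene had at least 390 counts in each library.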
